A study of Mus musculus with 6 samples.

Results

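The ephrins and Eph receptors described here are 10 genes of the 55401 in the count table, taken by mouse symbol: the ephrin-B genes Efnb1, Efnb2 and Efnb3, the ephrin-A genes Efna1 and Efna5, the EphB receptor genes Ephb2, Ephb3 and Ephb4, and the EphA receptor genes Epha2 and Epha3. Efnb1 was included because the study names it among the genes it treats as direct targets of NFIB and MLL1. Of the 10 genes, 9 passed the filter on low counts, and Epha3 did not. RNA-seq was done on C3H10T1/2 cells, a mouse embryonic mesenchymal line that can form bone, fat and muscle cells. The comparisons ask how these transcripts differ between days of osteogenic induction and after knockdown of NFIB or MLL1. All cells carried a short hairpin RNA, either a control hairpin (shControl), one against Nfib (shNFIB) or one against Mll1, whose gene symbol is Kmt2a (shMLL1). RNA of each line was taken before induction, at confluence (day 0), and again on day 7 of induction. The induction medium held dexamethasone at 0.1 µM, β-glycerophosphate at 20 mM and ascorbic acid 2-phosphate at 100 µg/ml. Every day 7 library was induced and no day 0 library was, so the medium and time in culture cannot be told apart. There were 6 conditions with 1 library each. The sources do not say whether a hairpin line was 1 clone or a pool, and 1 hairpin line per target was analyzed here.

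Eph receptors are receptor tyrosine kinases, and ephrins are their ligands on neighboring cells. Ephrin-A ligands are held to the membrane by a lipid anchor and bind mainly EphA receptors, whereas ephrin-B ligands span the membrane, bind mainly EphB receptors and signal into their own cell as well. In bone, ephrin-B2 and EphB4 are known for contact signaling between osteoclasts and osteoblasts, and loss of ephrin-B1 is known for defects of the skull and skeleton.

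The libraries held between 21608680 and 34774066 counts, and 3 counts, taken as the floor of detection, correspond to between 0.0939 and 0.123 CPM (counts divided by a library size that TMM scales). Nfib had 116 and 83.5 CPM in shControl at day 0 and day 7, against 35.3 and 8.15 CPM in shNFIB. Kmt2a had 74.7 and 66.3 CPM in shControl, against 30.9 and 34.8 CPM in shMLL1, so both hairpin targets were lower in the line named for them. Nfib also had 65.5 CPM in shMLL1 at day 0. All 10 mesenchymal markers examined were above the floor in every library. The 8 osteoblast markers summed to between 253 and 263 CPM in the day 0 libraries, and to 1557 CPM in shControl, 268.5 CPM in shNFIB and 357 CPM in shMLL1 at day 7. Of these day 7 sums Spp1 alone gave 1381, 226 and 304 CPM. In the same order Runx2 had 117, 30.4 and 35.3 CPM, Dlx5 52.5, 3.69 and 15.9 CPM and Ifitm5 2.59, 0.913 and 2.42 CPM. Alpl went the other way in shNFIB, with 3.64, 7.27 and 0.0820 CPM, from 0.253 CPM in shNFIB at day 0. Ibsp had 0 counts in every library, and Sp7 and Bglap had at most 7 and 13 counts. Summed levels of 6 cell cycle genes were between 1537 and 2133 CPM at day 0 and between 210 and 304 CPM at day 7. They moved with day, as several genes below did, and their part in those results was not tested. In these bulk samples, fewer cells that express a gene and less RNA per cell cannot be told apart.

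RefSeq promoter sequences on GRCm38.p6 matched 9 of the 10 genes, Efnb3 being the exception. The 250 bases before the start of Efnb1 and of Efnb2 are shown because these are the ephrin-B genes with a matched promoter, and the 5-base NFI core motif, TTGGC or its reverse complement GCCAA, is in capitals. The Efnb1 window is chrX:99135811-99136060 on the plus strand, and the Efnb2 window is chr8:8661243-8661492 on the minus strand.
Efnb1: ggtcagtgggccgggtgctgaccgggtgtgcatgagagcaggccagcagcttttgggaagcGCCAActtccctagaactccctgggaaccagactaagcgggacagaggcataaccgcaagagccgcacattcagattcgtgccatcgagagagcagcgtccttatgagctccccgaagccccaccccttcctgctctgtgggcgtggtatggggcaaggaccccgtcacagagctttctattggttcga
Efnb2: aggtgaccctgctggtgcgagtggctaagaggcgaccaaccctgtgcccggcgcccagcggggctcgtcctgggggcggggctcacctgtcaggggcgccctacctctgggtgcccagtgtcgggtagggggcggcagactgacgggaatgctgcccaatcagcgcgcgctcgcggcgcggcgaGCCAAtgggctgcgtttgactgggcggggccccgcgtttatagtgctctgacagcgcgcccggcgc
Each of these windows held 1 core motif, which began 189 bases before the start in Efnb1 and 66 bases before it in Efnb2. On both strands together, 41.5% of the 32851 RefSeq windows of this length held at least 1 core motif. Of the 10 windows of the matched genes (Efna1 has more than 1 start), 7 held a core motif and none a full NFI site, that is, TTGGC and GCCAA separated by 5 bases, which 0.0365% of all windows held. The Efnb2 window was rich in CpG, with 27 of them, a number reached by 8.56% of windows, and the Efnb1 window had 13, reached by 31.5%. A match is a description of the letters and not of binding, and no ChIP data were analyzed here.

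Levels of different genes were compared per length, as CPM per kb of exon. In shControl at day 0, Ephb4 was the highest at 22.1 CPM per kb. It was followed by Ephb3 at 14.4 and Efna1 at 13.5 CPM per kb, whose counting intervals overlapped, then by Efna5 at 10.2 and Efnb1 at 8.22 CPM per kb. Efnb2 at 4.36, Ephb2 at 2.54, Epha2 at 1.66 and Efnb3 at 0.433 CPM per kb came below these, with no overlap between neighbors, and Epha3 was at the floor. At day 7 in shControl, Ephb4, Efna1 and Ephb3 were again the 3 highest, between 11.7 and 13.5 CPM per kb, and each overlapped its neighbor in that order. Efnb2 had moved to the lowest place among the detected genes, at 0.431 CPM per kb. In the shMLL1 libraries Efna1 was the highest on both days, at 14.8 and 18.3 CPM per kb, and its interval at day 0 overlapped that of Ephb4 at 13.8 CPM per kb. All intervals are 95% intervals that cover counting error only. They are exact, except those for a day difference compared between lines, which use a normal approximation (Wald).

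**Figure D1:**
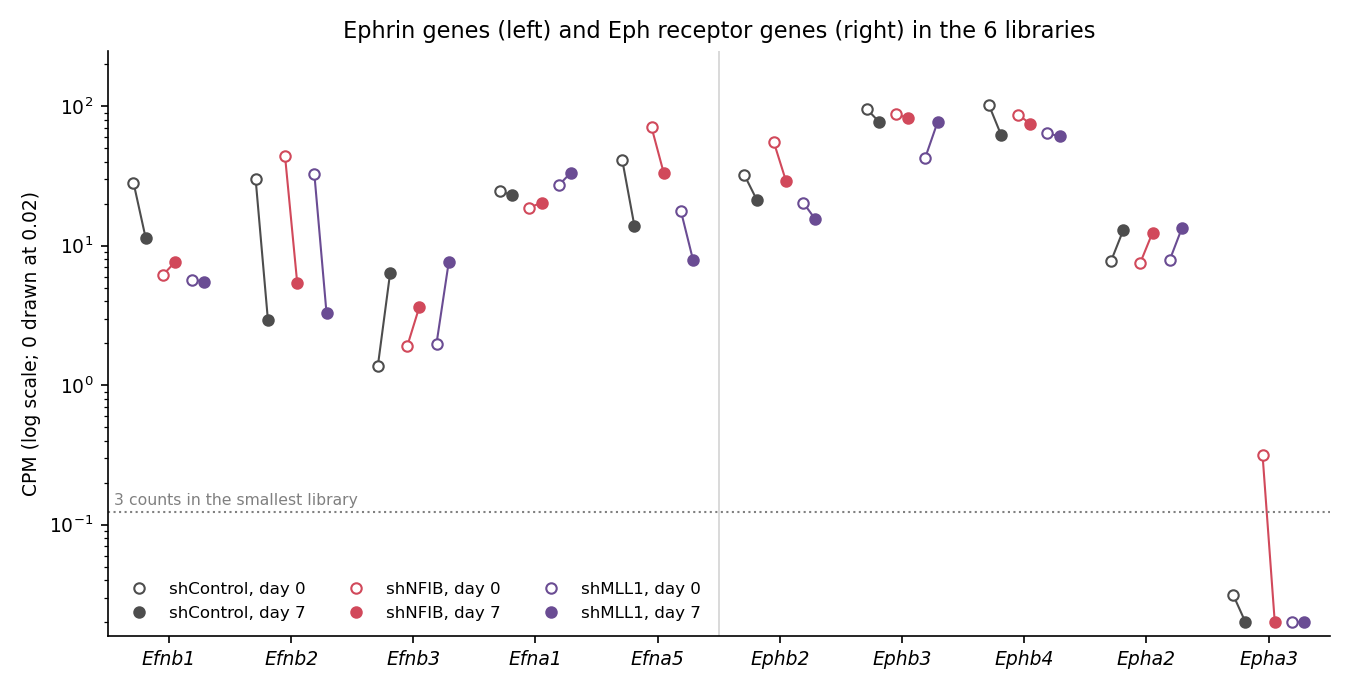
Expression of the 10 ephrin and Eph receptor genes in each library, in CPM on a log axis, with open points for day 0, filled points for day 7 and 1 color per hairpin line. Efnb2 lies lower and Efnb3 and Epha2 higher at day 7 in all 3 lines, while Efnb1 is high only in the shControl library at day 0 (28.4 CPM, against 5.53 to 11.4 CPM in the other 5). Epha3 lies above the dotted line of 3 counts in 1 library.

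Efnb1 (ENSMUSG00000031217, chrX:99136130-99148991, plus strand) encodes ephrin-B1. Its level was 28.4 CPM in shControl, 6.14 CPM in shNFIB and 5.70 CPM in shMLL1 at day 0, from 907, 194 and 172 counts. At day 7 it was 11.4 CPM in shControl, 7.65 CPM in shNFIB and 5.53 CPM in shMLL1. The shControl library at day 0 stood above the other 5. Between the libraries at day 0, Efnb1 was 4.62-fold lower in shNFIB than in shControl (log2 difference -2.21, 95% counting interval -2.44 to -1.98) and 4.98-fold lower in shMLL1 (-2.32, -2.56 to -2.08). Its difference was the 407th lowest among 16660 genes in shNFIB and the 455th lowest in shMLL1. At day 7 the log2 differences from shControl were -0.57 in shNFIB and -1.04 in shMLL1. The log2 day difference was -1.32 in shControl, against 0.32 in shNFIB and -0.04 in shMLL1, the last with a counting interval that holds 0. The day difference was thus 1.64 (1.31 to 1.97) higher in shNFIB than in shControl and 1.28 (0.91 to 1.65) higher in shMLL1, with counting error only. Over the 3 lines the log2 day difference was -0.36 (SE 0.354, adjusted p = 0.461 in edgeR's quasi-likelihood test), and it was 0.14 without the shControl line. Both day 0 line differences and the day difference in shControl share the shControl library of day 0, so they are not independent, and the data analyzed here hold 1 such library.

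Efnb2 (ENSMUSG00000001300, chr8:8617434-8661242, minus strand) encodes ephrin-B2, a ligand of EphB4. It had 29.9 CPM in shControl, 44.2 CPM in shNFIB and 32.9 CPM in shMLL1 at day 0, against 2.95, 5.41 and 3.28 CPM in the same lines at day 7. All day 7 libraries lay below all day 0 libraries, which was so for 21.0% of the genes tested. With day, Efnb2 fell by 3.23 on the log2 scale (9.37-fold, SE 0.217), with an adjusted p of 0.000479 in edgeR's quasi-likelihood test over the 3 lines, and it passed under all 8 alternative settings (adjusted p between 6.73e-34 and 0.00095). The difference was similar in size within each line, at -3.34 (log2) in the control line, -3.03 in shNFIB and -3.33 in shMLL1, and the counting intervals of the differences between lines held 0 (-0.08 to 0.70 for shNFIB minus shControl and -0.44 to 0.46 for shMLL1 minus shControl). Compared with shControl, Efnb2 was higher in shNFIB by 0.56 at day 0 and 0.87 at day 7 (log2), and in shMLL1 by 0.14 and 0.15. The 3 noncoding genes annotated over Efnb2 on the same strand had at most 5 counts in any library. Of the 6 endothelial markers examined, as Efnb2 and Ephb4 mark vessels too, Cdh5 and Kdr had at most 3 counts in every library, and the summed level of between 2.79 and 25.5 CPM was mostly Tek. Tek had 17.7 CPM at day 0 and 2.53 CPM at day 7 in shControl, 25.2 and 4.84 CPM in shNFIB, and 3.02 and 2.71 CPM in shMLL1. Pecam1 went from 5 to 7 counts with day in shControl, from 6 to 3 in shNFIB, and from 3 to 19 in shMLL1. Emcn went from 3 to 1 counts in shControl and from 2 to 6 in shNFIB, and had 2 on both days in shMLL1. Tie1 had 5 counts in shNFIB at day 7 and 0 in every other library. The part of these markers in the Efnb2 result was not tested.

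Efnb3 (ENSMUSG00000003934, chr11:69554092-69560205, minus strand), which encodes ephrin-B3, went the other way from a low level. It had 1.38 CPM in shControl, 1.90 CPM in shNFIB and 1.99 CPM in shMLL1 at day 0, and 6.33, 3.65 and 7.62 CPM at day 7. All day 7 libraries lay above all day 0 libraries, as for Epha2, and as for 23.5% of the genes tested. Efnb3 rose with day by 1.70 on the log2 scale (3.24-fold, SE 0.373, adjusted p = 0.0154 in the quasi-likelihood test). It passed under 7 of 8 alternative settings, and missed when the shControl line was left out (adjusted p = 0.0921, from a range of 0.0002 to 0.0921). Within the lines the log2 difference was 2.20 for shControl, 0.94 for shNFIB and 1.94 for shMLL1. The shNFIB value minus that of shControl was -1.26 (log2, counting interval -1.91 to -0.60).

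Per length, the make-up of the ephrin-B transcripts differed between the libraries. Efnb1 made up 63.2% of the summed ephrin-B level in shControl at day 0, against 20.2% in shNFIB and 23.3% in shMLL1, where Efnb2 made up 73.1% and 67.9%. The summed level was 13.0 CPM per kb in shControl, 8.82 in shNFIB and 7.08 in shMLL1 at day 0. At day 7 it was 5.71, 4.15 and 4.48 CPM per kb, lower than at day 0 in each line. Efnb2 then held between 7.55% and 19.0% of it, and Efnb3 held 34.9% in shControl, 27.6% in shNFIB and 53.5% in shMLL1.

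**Figure D2:**
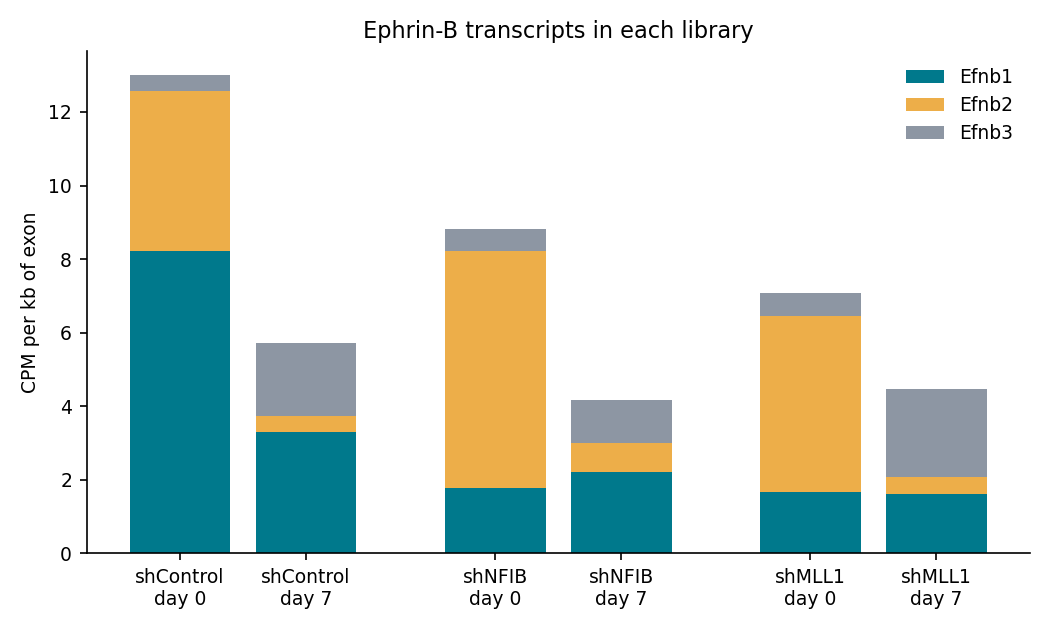
Stacked bars of the 3 ephrin-B genes in each library, in CPM per kb of exon, with 1 library per bar and no error bar. Efnb1 is the largest share in the shControl library at day 0 (63.2%) and Efnb2 in the shNFIB and shMLL1 libraries at day 0 (73.1% and 67.9%), and the Efnb2 share is small in all 3 libraries at day 7.

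The ephrin-A genes differed from each other. Efna5 (ENSMUSG00000048915, chr17:62604184-62881317, minus strand), which encodes ephrin-A5, had 41.2 CPM in shControl, 70.5 CPM in shNFIB and 17.7 CPM in shMLL1 at day 0, and 13.8, 33.2 and 7.87 CPM at day 7. On each day shNFIB was the highest and shMLL1 the lowest, and because the lines lay so far apart the day 0 and day 7 libraries overlapped. With day, Efna5 fell by 1.28 on the log2 scale (2.43-fold, SE 0.2, adjusted p = 0.00505 in the quasi-likelihood test with line as a block), a call lost only without that block among 8 alternatives (adjusted p = 0.17, from a range of 1.96e-06 to 0.17). Against shControl it was higher in shNFIB by 0.78 at day 0 and 1.26 at day 7 (log2), and lower in shMLL1, with log2 differences of -1.22 and -0.81. Efna1 (ENSMUSG00000027954, chr3:89271733-89281142, minus strand), which encodes ephrin-A1, the common ligand of EphA2, had between 18.8 and 33.5 CPM over the 6 libraries. Its log2 difference with day was 0.11 (SE 0.195, adjusted p = 0.698 in the quasi-likelihood test), and it was lowest in shNFIB and highest in shMLL1 on both days.

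Among the EphB receptor genes, Ephb2 (ENSMUSG00000028664, chr4:136647539-136835988, minus strand) had 32.1 CPM in shControl, 55.4 CPM in shNFIB and 20.4 CPM in shMLL1 at day 0, and 21.4, 29.1 and 15.5 CPM at day 7, the same order of lines as for Efna5. With day it fell by 0.64 (log2, 1.56-fold, SE 0.2, adjusted p = 0.0464 in the quasi-likelihood test), near the threshold. The call held under 4 of 8 alternatives (adjusted p between 0.0253 and 0.215). This call was lost without the shControl line (0.191), without the shNFIB line (0.197), with library size alone (0.107) and with no line block (0.215). Its log2 difference from shControl was 0.79 at day 0 and 0.44 at day 7 in shNFIB, and -0.65 and -0.47 in shMLL1.

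Ephb3 (ENSMUSG00000005958, chr16:21204755-21223305, plus strand) stood apart in 1 library: at day 0 it had 95.8 CPM in the shControl library, 87.4 CPM in that of shNFIB and 42.9 CPM in that of shMLL1. At day 7 the levels were 77.5, 82.4 and 76.7 CPM. In shMLL1 it was thus 2.23-fold lower than shControl at day 0 (log2 difference -1.16, counting interval -1.25 to -1.07) and within counting error of it at day 7 (-0.01, counting interval -0.10 to 0.07). Its day difference was 0.84 in shMLL1, against -0.31 in shControl and -0.08 in shNFIB (log2), and over the 3 lines it was 0.15 (SE 0.255, adjusted p = 0.683 in the quasi-likelihood test). Ephb4 (ENSMUSG00000029710, chr5:137350109-137378669, plus strand), the receptor of ephrin-B2, had 102 CPM in shControl, 86.8 CPM in shNFIB and 63.8 CPM in shMLL1 at day 0, and 62.5, 74.9 and 61.0 CPM at day 7. The log2 difference of shMLL1 from shControl was -0.68 at day 0 and -0.03 at day 7. The day difference of Ephb4 over the lines was -0.33 (SE 0.201, adjusted p = 0.233 in the quasi-likelihood test), so the test did not call the receptor while it called its ligand Efnb2, and no test of the difference between the genes was made. Zan, which overlaps Ephb4 on the other strand, had between 3 and 27 counts.

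Of the EphA receptor genes, Epha2 (ENSMUSG00000006445, chr4:141301240-141329384, plus strand) gave almost the same values in the 3 lines. It had 7.76 CPM in shControl, 7.57 CPM in shNFIB and 7.89 CPM in shMLL1 at day 0, and 12.9, 12.4 and 13.4 CPM at day 7. Epha2 rose with day by 0.74 (log2, 1.67-fold, SE 0.224, adjusted p = 0.0425 in the quasi-likelihood test), and the log2 difference within each line was between 0.71 and 0.76. The call held under 3 of 8 alternatives (adjusted p between 0.0139 and 0.226). It was lost when any line was left out, with an adjusted p of 0.226 without shControl, 0.097 without shNFIB and 0.0636 without shMLL1. It was also lost with no line block (0.0527) and with all genes with a count (0.0513). The log2 differences from shControl were between -0.06 and 0.05 on both days. Epha3 (ENSMUSG00000052504, chr16:63543534-63864175, minus strand) had 10 counts in shNFIB at day 0, 1 count in shControl at day 0 and 0 in the other 4 libraries, where the floor of 3 counts was between 0.0984 and 0.123 CPM. No fold is given for it.

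Counted together, 2 of the 9 genes that passed the filter rose with day (Efnb3 and Epha2), where 16.8% of the 16660 genes tested did, and 3 fell (Efnb2, Efna5 and Ephb2), where 16.6% did. Without a test, by a fold over 2 between the libraries of 1 line, Efnb3 was higher at day 7 in shControl (21.8% of genes were) and Efnb1, Efnb2 and Efna5 were lower (14.9% of genes). In shNFIB none was higher (16.8% of genes) and Efnb2 and Efna5 were lower (13.6%). In shMLL1 Efnb3 was higher (25.0% of genes) and Efnb2 and Efna5 were lower (18.8%). Some of these calls rest on the scaling. With library size alone, Efna5 missed the fold in both hairpin lines, at -0.99 in shNFIB and -0.96 in shMLL1 (log2), whereas Efnb3 in shNFIB, at 1.04, and Ephb3 in shMLL1, at 1.05, passed it. The median log2 difference of the 9 genes was -0.58 for shControl, -0.08 for shNFIB and -0.04 for shMLL1, beside -0.01, -0.02 and 0.05 for all genes tested. These pair comparisons have no replicate check.

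**Figure D3:**
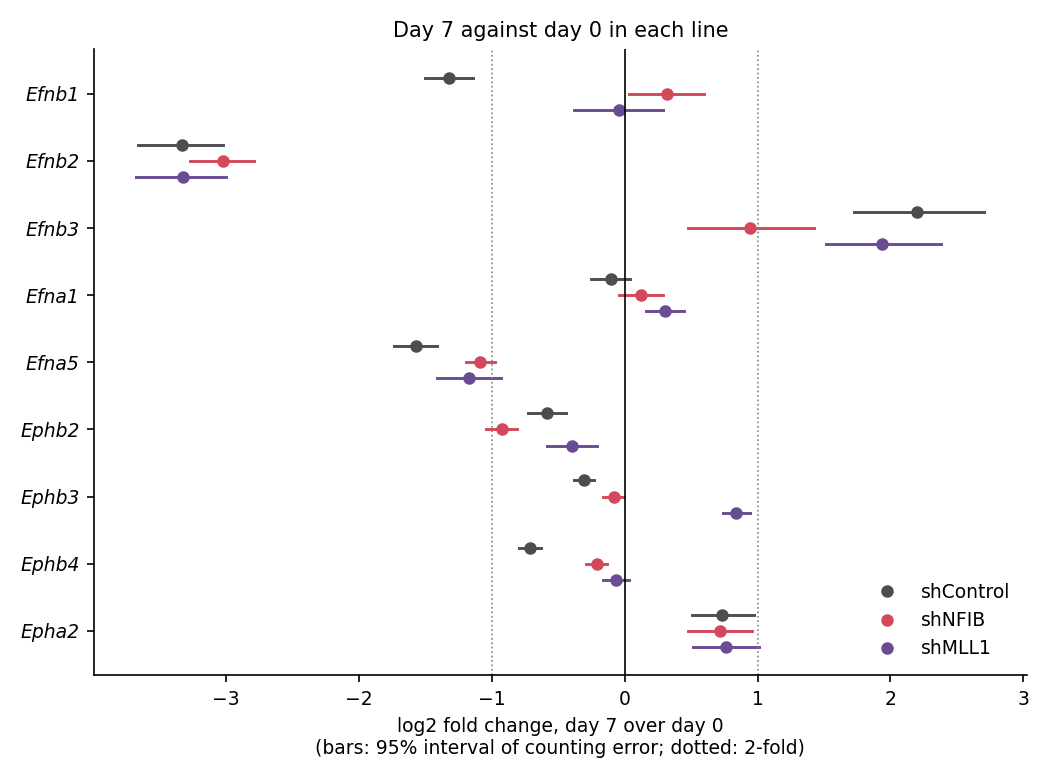
Log2 difference of day 7 from day 0 in each line for the 9 genes that passed the filter, with bars for the 95% interval of counting error and dotted lines at a fold of 2. Efnb2 lies between -3.34 and -3.03 in all lines and Epha2 between 0.71 and 0.76, whereas Efnb1 is at -1.32 in shControl only and Ephb3 at 0.84 in shMLL1 only.

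Against shControl at day 0, Efnb1 was past a fold of 2 in shNFIB, lower, as were 6.90% of genes, and no member was higher (7.71% of genes). In shMLL1 at day 0, Efnb1, Efna5 and Ephb3 were lower past that fold (10.2% of genes) and none was higher (10.2%). At day 7, Efna5 was higher in shNFIB (8.01% of genes) and none was lower (12.2%), and Efnb1 was lower in shMLL1 (6.41% of genes), at 2.05-fold, and none was higher (7.48%). That last call rests on the scaling, since the log2 difference was -0.93 with library size alone.

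**Figure D4:**
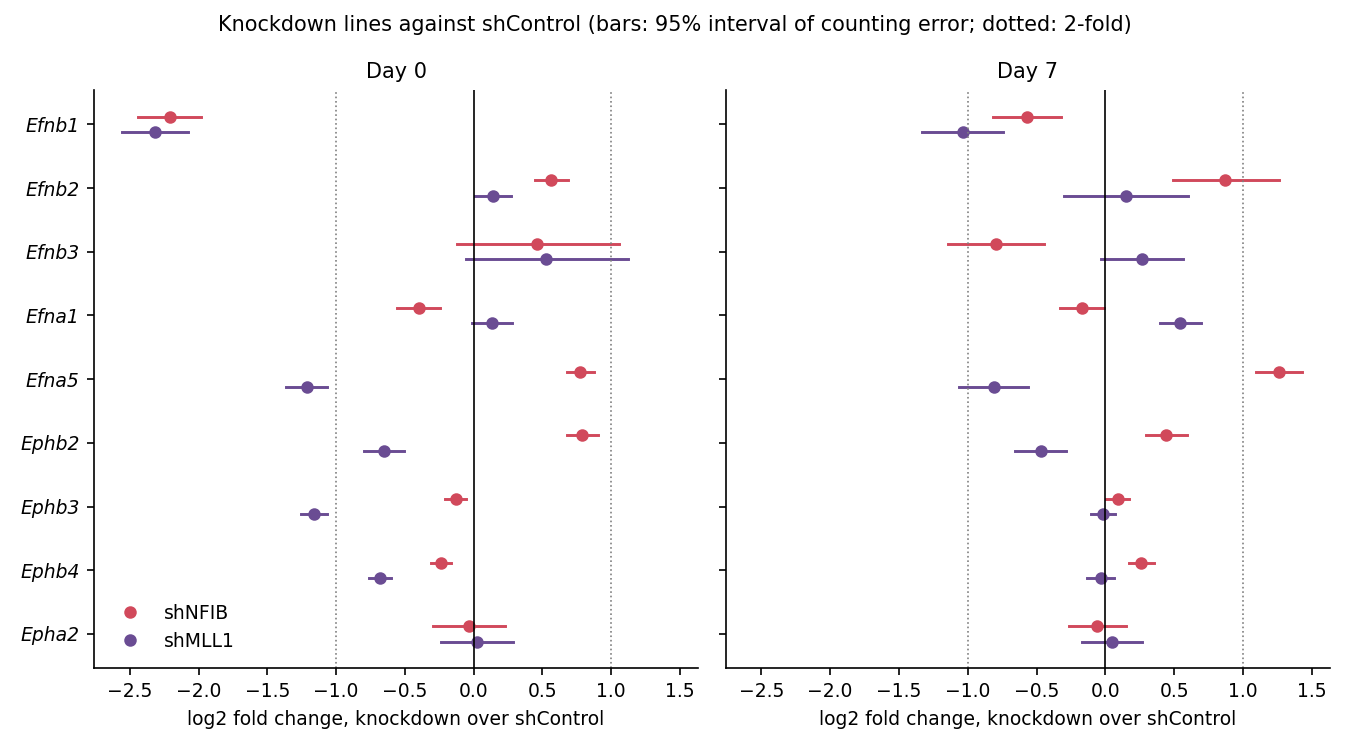
Log2 difference of shNFIB and shMLL1 from shControl for the 9 genes at day 0 (left) and day 7 (right), with bars for the 95% interval of counting error and dotted lines at a fold of 2. Efnb1 is below -2 in both lines at day 0 and at -0.57 and -1.04 at day 7, and Efna5 and Ephb2 lie on opposite sides of 0 in the lines on both days.

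With both days as the samples of a line, no member passed edgeR's quasi-likelihood test at an adjusted p under 0.05, in shNFIB (0.114% of genes were higher and 0.264% lower) or in shMLL1 (0.0120% higher and 0.0180% lower). At an unadjusted p under 0.05 in that test were 4 of the 9 members in shNFIB (Efnb1, Efnb2, Efna5 and Ephb2), beside 2093 of the 16660 genes. In shMLL1 there were 2 of the 9 (Efnb1 and Efna5), beside 1555 of the 16660 genes. DESeq2 called 2 members in each line, Efnb1 and Efna5. By DESeq2's Wald test 1.78% of genes were higher and 1.91% lower in shNFIB, and 1.18% were higher and 1.58% lower in shMLL1. Efnb1 had a log2 difference of -1.43 in shNFIB (SE 0.436, adjusted p = 0.253 in edgeR, between 0.0339 and 0.239 over 5 alternatives) and of -1.75 in shMLL1 (SE 0.438, adjusted p = 0.243, between 0.00716 and 0.269). Efna5 had 1.01 in shNFIB (SE 0.243, adjusted p = 0.168 in edgeR, between 0.0307 and 0.23 over the alternatives) and -1.02 in shMLL1 (SE 0.245, adjusted p = 0.23, between 0.0463 and 0.274). The hairpin targets themselves did not pass this test either, with adjusted p of 0.14 for Nfib in shNFIB and 0.149 for Kmt2a in shMLL1. The fits share the shControl libraries.

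The family holds 12 more genes in the table, of which 7 passed the filter. Efna4 rose with day (1.37 on the log2 scale, 2.59-fold, SE 0.289, adjusted p = 0.0134 in the quasi-likelihood test), from between 3.41 and 7.45 CPM at day 0 to between 12.9 and 13.9 CPM at day 7, and the other 6 were not called. No gene of the 7 passed the line tests. Ephb6, a receptor without kinase activity, had 17.7 CPM in shControl, 38.1 CPM in shNFIB and 15.8 CPM in shMLL1 at day 0, and 13.9, 32.8 and 56.0 CPM at day 7, so that the shMLL1 library of day 7 was the highest. Epha7 had 41.3, 81.1 and 21.9 CPM in these lines at day 0 and 19.5, 45.3 and 22.8 CPM at day 7. On day 0 its order of lines, with shNFIB highest and shMLL1 lowest, was that of Efna5 and Ephb2. Epha4 had at most 4.72 CPM and Efna2, Efna3 and Epha1 at most 3.97 CPM. In shMLL1, 4 of the 7 were past a fold of 2 higher at day 7 (25.0% of genes were) and none was lower (18.8%), against 1 higher (21.8%) and 3 lower (14.9%) in shControl. Epha1, which was 1 of the 4 and the gene counted as higher in shControl, had 5 counts in shMLL1 and 1 in shControl at day 0. Epha5, Epha6, Epha8, Epha10 and Ephb1 did not pass the filter, and Epha6, Epha10 and Ephb1 had 0 counts in all 6 libraries.

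Of 43 genes for proteins that process ephrins or act downstream of them and of Eph receptors, 38 passed the filter. With day, 14 of them fell, as did 16.6% of all genes tested, and 3 rose, as did 16.8%, in the quasi-likelihood test. Among those that fell were Rac1, which fell by 0.73, and Cdc42, which fell by 0.84 (log2), small GTPases of the actin cytoskeleton. Tiam1, an exchange factor for Rac, had 9.49, 25.5 and 7.19 CPM in shControl, shNFIB and shMLL1 at day 0 and 1.28, 1.46 and 0.984 CPM at day 7, a fall of 3.31 (log2, SE 0.366, adjusted p = 0.00146 in edgeR). Chn2, a GTPase-activating protein for Rac, fell by 1.67 (log2). Its relative Chn1 also fell, from 12, 43 and 19 counts in shControl, shNFIB and shMLL1 at day 0 to 4, 5 and 1 at day 7, and is given without a fold. Ngef, the exchange factor ephexin, had between 22 and 38 counts in the day 0 libraries and at most 3 at day 7, and is given without a fold. The kinases Fyn and Ptk2 fell by 1.54 and 0.82, the phosphatases Ptprj and Acp1 by 1.02 and 0.67, and the adaptor Crkl and the Ras regulator Rasa1 by 0.81 and 0.74 (log2). Adam10, the protease that sheds ephrins, fell by 1.22 (log2, SE 0.275, adjusted p = 0.0167 in edgeR), from 319 to 83.9 CPM in shControl, from 406 to 204 CPM in shNFIB and from 154 to 91.1 CPM in shMLL1. The 3 genes that rose were Pick1, a PDZ protein that binds ephrin-B tails, by 1.34, Vav2, a guanine nucleotide exchange factor, by 1.16, and Anks1, an adaptor of Eph receptors, by 1.05 (log2). Vav2 (adjusted p = 0.043 in edgeR) went from 38.3 CPM at day 0 to 78.5 CPM at day 7 in shControl. It went from 73.6 to 89.0 CPM in shNFIB and from 18.95 to 85.8 CPM in shMLL1. The median day difference of the 38 genes was -0.34 (log2), beside 0.00 for all genes tested. No gene of the 38 passed a line test. The rule for the day 7 line differences named Ngef, whose 0, 3 and 0 counts in shControl, shNFIB and shMLL1 are at the floor and give no fold, and also Vav3, at 2.89 CPM in shControl, 11.3 CPM in shNFIB and 14.8 CPM in shMLL1, and the PDZ protein gene Grip1, at 1.87, 1.29 and 0.492 CPM.

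The genes whose levels over the 6 libraries were most like those of Efnb1, by the root mean square difference of centered log2(CPM + 0.1) values among 16660 genes, were the unprocessed pseudogene Gm4759 (0.176), Adap1 (0.315) and Pde8b (0.318). The spread of Efnb1 itself on this scale was 0.824. Gm4759 had 8.23 CPM in shControl at day 0 and between 1.27 and 2.89 CPM in the other 5 libraries. Adap1 rested on at most 27 counts per library and Pde8b on at most 92.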

How the data were processed

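Per the submitters' processing notes and the study's methods, reads were trimmed (Trimmomatic 0.39), mapped to GRCm38 (HISAT2 2.2.1), cleared of PCR duplicates and low mapping quality (SAMtools 1.12) and assigned to genes (HTSeq 0.11.1). The deposited values are whole-number counts for each Ensembl gene, which the authors left unnormalized. The strand setting and annotation release were not given in the sources used here. Positions, exon lengths and overlaps were taken from GENCODE M21 on GRCm38.

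The members and lists were chosen with earlier results of these data known. Counts were analyzed with edgeR 4.0.16 (R 4.3.3) after filterByExpr, with TMM factors over the 6 libraries. The quasi-likelihood model had line and day as terms and 2 residual degrees of freedom, with a fitted BCV of 0.281. Its p-values, adjusted by Benjamini-Hochberg over 16660 genes, measure the spread between single libraries of 3 lines. The line pairs the days, since both libraries come from the same cells. The correlations of their deviations from the day means were 0.427 in shControl, 0.429 in shNFIB and 0.274 in shMLL1. Pairs of libraries were described by log2 differences with a small prior count, exact 95% counting intervals and a fold of 2, without a test. Reads are not independent molecules, so intervals and floors cover counting error only. Named genes were the members, the other family genes that passed the filter, the signaling partners that passed the day test, the 3 partners furthest from shControl at day 7 and the 3 genes most like Efnb1. A result that this rule would name is not reported here. The markers examined also covered adipocyte, blood and nerve genes, which summed to between 18.2 and 108, between 1.52 and 8.20 and between 2.23 and 11.2 CPM. Adipocyte sums rose with day: 51.0 to 107.9 CPM for shControl, 63.5 to 93.2 for shNFIB, 18.2 to 29.5 for shMLL1. For shControl, Plin1 went from 0 to 15.5 CPM and Lpl from 0.188 to 35.6 CPM. Neither gene passed 1.15 CPM in the knockdown lines. Pparg was instead highest in the shNFIB library of day 7 (84.2 CPM), and Cebpa fell in shControl (19.0 to 10.3 CPM). The part of these genes in the results was not tested. The alternatives were DESeq2 1.42.0 (size factors or its Wald test), library size alone, a prior count of 2, all genes with a count, the exact test at an assumed BCV of 0.2 or 0.4, no line block, fits without 1 line and fits of the 4 libraries compared. Python 3.11.15 was used for intervals (scipy 1.17.1) and plots (matplotlib 3.10.9).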

Additional observations from a re-analysis of the deposited data

Results flagged for a closer look

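The log2 day difference of Efnb1 in shControl minus that in shNFIB was -1.64 (from -1.32 and 0.32), with opposite signs and counting intervals clear of 0. That of Ephb3 was -0.31 in shControl and 0.84 in shMLL1, a difference of -1.15 (-1.145). The difference of the Ephb3 day values between shNFIB and shMLL1 was -0.92, but the shNFIB value of -0.08 was 0.01 with library size alone. Between the days, the log2 difference of shNFIB from shControl moved from -0.13 to 0.09 for Ephb3 (-0.22) and from -0.24 to 0.26 for Ephb4 (-0.50), and the day 7 value of Ephb3 was -0.02 with library size alone. With 1 library per condition none of these differences was tested.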

How the results depend on the processing

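Library size alone as the scaling shifted the median log2 difference of all genes by 0.207 in shMLL1 with day and by up to 0.108 in the other pairs. Of the members' 63 log2 differences between pairs, 15 moved beyond their counting interval and 6 changed sign, all of the latter for Efnb1, Ephb3 or Ephb4. These 6 were within 0.09 of 0 with TMM. With library size alone they reached up to 0.16, for Efnb1 in shMLL1 with day. Over all genes that scaling gave 3258 higher and 2118 lower calls with day, against 2796 and 2760 with TMM, and for day 7 against day 0 in shMLL1 4867 and 2469 past 2-fold, against 4157 and 3130.

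The members past 2-fold numbered 4 in shControl, 2 in shNFIB and 3 in shMLL1 with day. Adding the exact test at a BCV of 0.4 left 1, 1 and 1 of them, and at 0.2 left 1 in shNFIB. For shNFIB against shControl the count of 1 at day 0 was 0 at a BCV of 0.4 and 2 with all genes, which adds Epha3, and the 1 at day 7 was 0 at either BCV. For shMLL1 the 3 at day 0 were 1 at a BCV of 0.2 and 0 at 0.4, and the 1 at day 7 was 0 at either BCV and with library size alone. Over all genes, those past 2-fold with day numbered 6112, 5062 and 7287 in shControl, shNFIB and shMLL1, and 4090, 2774 and 5606 with the exact test at a BCV of 0.2 or 484, 623 and 1124 at 0.4. Against shControl they numbered 2434 and 3365 for shNFIB at day 0 and day 7 and 3405 and 2314 for shMLL1, which became 636, 1180, 1149 and 675 at 0.2, 109, 155, 99 and 72 at 0.4, and 3577, 5311, 5330 and 4522 with all genes. The day test called 5 members, 2 with no line block, and between 2 and 4 without 1 line: 2 without shControl, 3 without shNFIB and 4 without shMLL1. Without the shControl line, 1283 genes were higher and 1300 lower with day. Over all genes the day test called 5556, and 3896 with no line block. Without shControl, shNFIB and shMLL1 in turn it called 2583, 4886 and 5201 genes. For shNFIB over both days the count of 0 members was 1 with all genes, 2 in DESeq2's Wald test and 1 with the 4 libraries only. For shMLL1 it was 1 with all genes and 2 in DESeq2's Wald test. The line tests called 63 and 5 genes in all, against 615 and 424 in DESeq2, 688 and 526 with all genes, and 823 and 217 with the 4 libraries only. The smaller fits also hold fewer samples, and the cause of these differences was not tested.

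The day test was paired by line, except in the alternative with no line block. No other pairing was made, because the labels give no replicate numbers. Depth limits what can be said of Epha3, Epha1, Epha4, Ngef, Chn1 and Grip1, which had under 10 counts in 1 or more libraries, and each condition had 1 library here.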
